A study of Homo sapiens with 15 samples.

Results

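The genes described here are 44 interferon-stimulated and antigen presentation genes, taken as a list of symbols. Each of the 44 symbols matched 1 gene among the 62754 genes of the deposited count table. They were followed in MCF10A cells, a non-transformed human breast epithelial line of wild type genotype in all groups. The cells grew in glutamine-free DMEM/F12 medium to which glutamine was added at 0.04, 0.12, 0.20 or 0.28 mM, or in full DMEM/F12 medium with 2.5 mM glutamine. Each of the 5 groups had 3 biological replicates, so 15 total RNA libraries were compared, and the question was how expression of these genes changed when glutamine was limiting. All 4 comparisons with full medium use the same 3 full-medium libraries, so their results are not independent of each other.

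Interferons are secreted proteins that bind receptors on the cell surface and activate JAK kinases. Type I and type III interferons lead to a complex of STAT proteins, STAT2 among them, with IRF9, which binds a DNA element called the interferon-stimulated response element (ISRE). Type II interferon leads to a STAT dimer that binds the gamma-activated sequence (GAS). Many target genes restrict viruses, sense foreign nucleic acid, or load peptides on MHC class I molecules for display to T cells, and epithelial cells keep part of this set at a low level without added interferon.

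Promoter sequences show what many of these genes share by sequence rather than by level. The windows ran from 250 bases before to 50 bases after the annotated start, in RefSeq on GRCh38.p14, and were at hand for 34 of the 44 genes, 7 of which had more than 1, so that 42 windows were read. A gene counts as having a pattern if any of its windows holds it. IRF2, IRF3, IRF7, IFIT2, MX2, OAS2, OASL, UBA7, USP18 and HLA-E had no window. An ISRE core, searched as TTTC, any 2 bases, TTTC on both strands (GAAA, any 2 bases, GAAA on the other strand), was found in 23 of the 34 genes (67.6%), against 4.38% of 27305 genes with a window. The GAS pattern TTCNNNGAA, which reads the same on both strands, was found in 10 of 34 (29.4%), against 9.38% of all genes. The excerpts below are 60 bases each, written 5′ to 3′ on the strand of the gene with ISRE cores in capitals. They are from the genes that passed the test in at least 1 comparison and carry the core, from PARP9, which lies head to head with DTX3L, and from ISG15 and IFIT1, textbook interferon targets that did not pass.
PARP14, chr3:122680784-122680843, plus strand: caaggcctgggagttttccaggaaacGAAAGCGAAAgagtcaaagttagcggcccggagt
DTX3L, chr3:122564298-122564357, plus strand: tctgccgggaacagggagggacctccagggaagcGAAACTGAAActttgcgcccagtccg
PARP9, chr3:122564308-122564367, minus strand: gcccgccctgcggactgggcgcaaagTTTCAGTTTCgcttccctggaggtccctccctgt
SAMD9, chr7:93118082-93118141, minus strand: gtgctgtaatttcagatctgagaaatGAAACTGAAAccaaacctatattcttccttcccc
B2M, chr15:44711350-44711409, plus strand: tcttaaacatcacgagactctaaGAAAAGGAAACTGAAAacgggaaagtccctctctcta
IFI44L, chr1:78620350-78620409, plus strand: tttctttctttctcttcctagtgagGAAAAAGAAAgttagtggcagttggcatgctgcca
ISG15, chr1:1013361-1013420, plus strand: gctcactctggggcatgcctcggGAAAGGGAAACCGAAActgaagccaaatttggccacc
IFIT1, chr10:89392488-89392547, plus strand: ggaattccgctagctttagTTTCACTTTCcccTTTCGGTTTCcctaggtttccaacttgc

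In these excerpts the capitals of DTX3L and PARP9 are the same 10 bases, chr3:122564332-122564341, read from opposite strands. B2M and ISG15 each carry 2 cores that overlap by 4 bases, IFIT1 carries 2 separate cores, and IFI44L has a second core outside the excerpt. Over the 42 windows there were 43 ISRE cores at distinct genome positions. By role, the core was found in 5 of 6 ISG15 conjugation, ADP-ribosylation and ubiquitin genes with a window, 5 of 7 of the antiviral effectors, 4 of 6 of the antigen presentation genes, 3 of 3 of the IFIT family, 4 of 5 of the other interferon-inducible genes, 2 of 4 of the sensors and 0 of 3 of the regulators. A match to these letters is a description of the window and does not show binding.

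**Figure D1:**
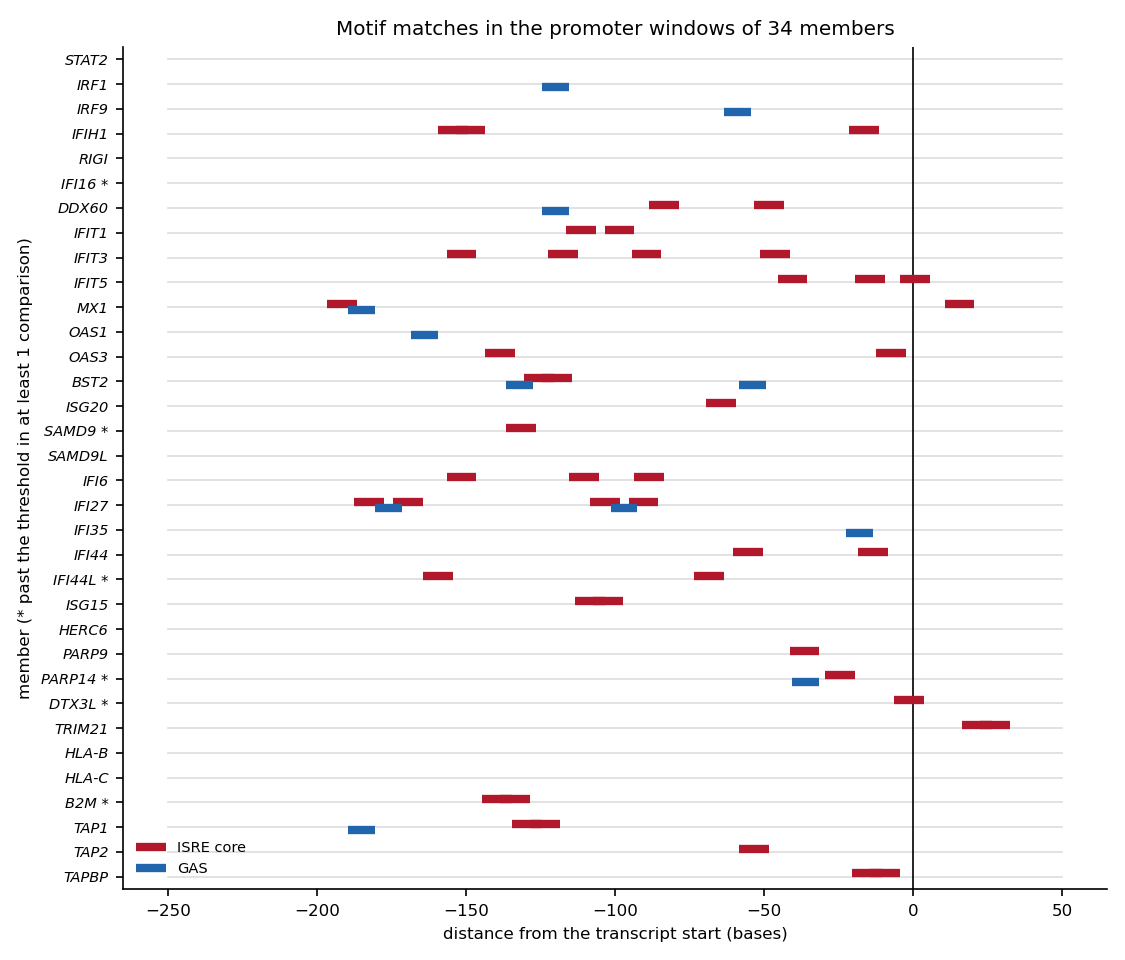
Positions of the ISRE core and the GAS pattern in the promoter windows of the 34 genes that had one, in bases from the annotated start. Each row is a gene and each mark a match on either strand, drawn from the start of its own window, so a match in overlapping windows of 1 gene is drawn more than once. The ISRE core appears in 23 rows and GAS in 10, and 7 rows hold neither.

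Levels of these genes differed widely from one another. Together they took 0.134% to 0.174% of the gene counts of a library, that is 5821 to 19544 counts. CPM here are counts scaled to a common library total after adjustment by TMM normalization factors. Per kilobase of the longest principal transcript, mean levels ran from 174 CPM per kb for B2M, the light chain of MHC class I, to 0.00709 CPM per kb for MX2. The next levels per kb were 108 for HLA-C and 93.8 for TAPBP (tapasin, which helps load peptide on MHC class I). HLA-B had 50.5, HLA-E 47.6, IFI16 44.7 and IRF3 38.1 CPM per kb. At the low end, IFIT1 had 0.641, MX1 0.264, RIGI 0.146, IFIT2 0.145, OAS2 0.131 and SAMD9L 0.103 CPM per kb. The 5 highest levels per kb were all of antigen presentation genes.

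**Figure D2:**
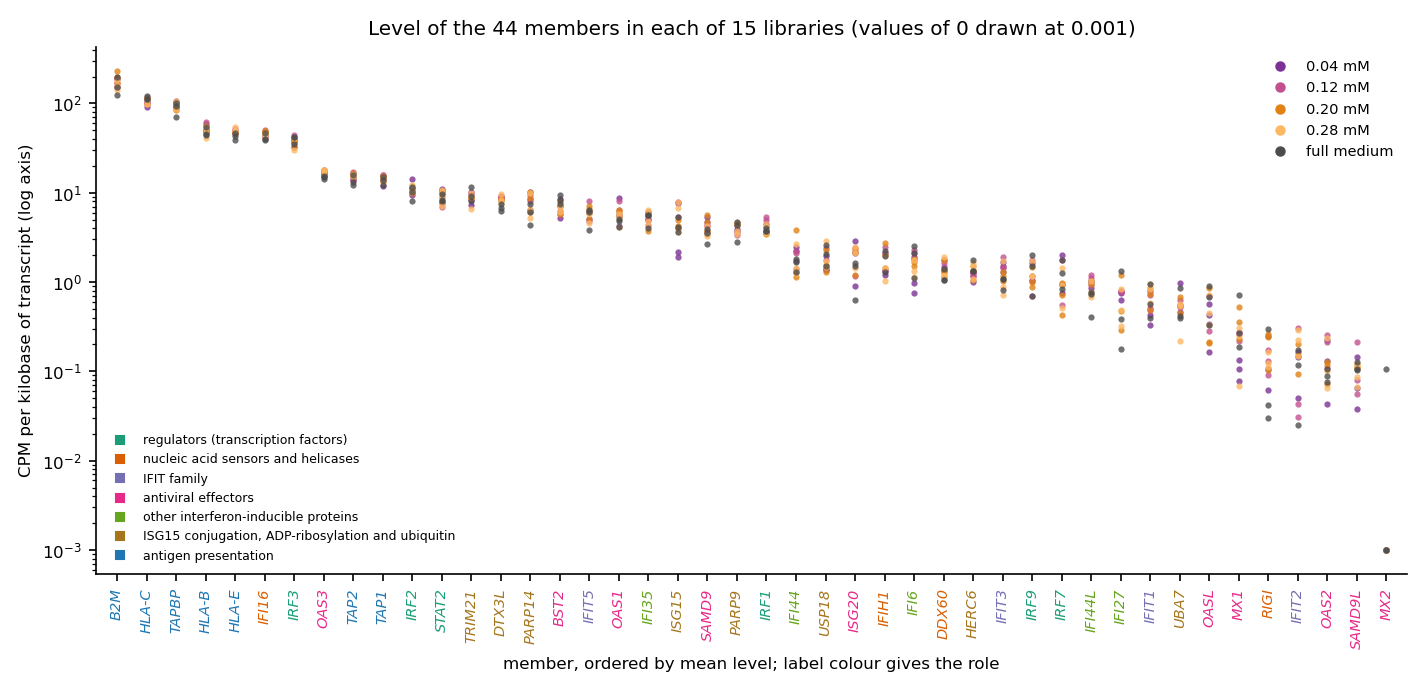
Level of each of the 44 genes in CPM per kilobase of transcript on a log axis, 1 point per library coloured by glutamine group, with genes ordered by their mean and label colours giving the role. Means run from 174 for B2M to 0.00709 CPM per kb for MX2, whose libraries with 0 counts are drawn at the foot of the axis.

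Of the 44 genes, 38 passed the filter on low counts and were tested among 13828 genes in all. The other 6 had few counts over all 15 libraries: RIGI 86, IFIT2 66, MX2 3, OAS2 62, SAMD9L 98 and IFI27 65. All 3 counts of MX2 came from 1 full-medium library, and RIGI, the RNA sensor, had sums of 13, 14, 27 and 17 counts from 0.04 to 0.28 mM and 15 in full medium. Among the 38 tested genes, the median of the mean levels was 11.3 CPM, against 24.0 CPM for all genes tested.

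Library totals ran from 3704170 to 13361406 gene counts, and ERCC counts were 1.03% to 1.58% of each library. Replicate 3 of 0.04 mM, the shallowest, and replicate 3 of 0.12 mM held 2.97% and 1.62% of mitochondrial rRNA, and the other 13 held less than 1%. Basal breast epithelial markers summed to 14398 to 23039 CPM, which matches the labelled cells, whereas KRT19 had 11 counts in all. Among the immune markers CD3E was at 0 in all libraries, and the list summed to 1.89 to 2.80 CPM at 0.04 mM and 1.57 to 1.81 CPM in full medium. Of 4 endothelial markers CDH5 was at 0 in all libraries, and the sum, mostly PECAM1, was 5.84 to 12.2, 6.51 to 9.69, 7.15 to 8.30 and 4.99 to 8.85 CPM from 0.04 to 0.28 mM, and 3.77 to 5.68 CPM in full medium. Of 5 fibroblast markers LUM was at 0 in all libraries and COL1A2 had 8 counts, while COL1A1 and DCN brought the sum to 50.4 to 61.04, 47.7 to 55.3, 41.0 to 56.2 and 37.5 to 54.3 CPM, and 33.2 to 45.7 CPM in full medium. The ranges of the endothelial and fibroblast sums lay higher in the limited groups than in full medium, with overlap in some groups, as did the genes that passed the test, and their part in those results was not tested.

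Limited glutamine went with a small rise of a few of these genes, led by PARP14 and DTX3L, while most did not pass the test. At 0.04 mM 3 of 38 passed (PARP14, SAMD9 and DTX3L), at 0.12 mM 3 (PARP14, DTX3L and IFI44L), at 0.20 mM 5 (PARP14, B2M, SAMD9, DTX3L and IFI16) and at 0.28 mM 1 (DTX3L). All of these rose relative to full medium and none fell. The test was edgeR's quasi-likelihood test with the replicate number as a block, at a Benjamini-Hochberg adjusted p under 0.05 over all genes tested. In the same fit the share of all genes that rose was 7.21% at 0.04 mM, 4.41% at 0.12 mM, 7.67% at 0.20 mM and 1.23% at 0.28 mM. The shares of all genes that fell were 6.23%, 3.9%, 7.15% and 0.846% in the same order. As a share of the 38, the genes that rose were 7.89%, 7.89%, 13.2% and 2.63%. At 0.04 mM this was near the share of all genes that rose, and the other 3 differ from that background by a few genes. Since none of the 38 fell, their calls in either direction made up the same shares. Of all 13828 genes, 1858, 1149, 2050 and 287 were called in either direction, in the same order. Counted that way, the 38 were called less often than all genes in every comparison except that at 0.28 mM. These shares rest on 3, 3, 5 and 1 calls.

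Without the replicate block none of the 38 passed in any of the 4 comparisons. Their lowest adjusted p was then 0.230, 0.388, 0.420 and 1.00 from 0.04 to 0.28 mM by edgeR's quasi-likelihood test with Benjamini-Hochberg adjustment. At an unadjusted p under 0.05, 10, 9, 8 and 4 of the 38 were counted with the block, against 27.1%, 22.3%, 28.4% and 15.9% of all genes. Without the block there were 4, 3, 2 and 2, against 11.6%, 8.03%, 10.2% and 4.45% of all genes. Of all genes, 0.0434% passed without the block at 0.04 mM, 0.0% at 0.12 mM, 0.0145% at 0.20 mM and 0.0% at 0.28 mM. DESeq2 with the block called 3, 3, 5 and 2 of the 38, the second at 0.28 mM being HLA-E, while 7.18%, 4.17%, 7.26% and 1.52% of all genes rose. Without the 2 libraries high in mitochondrial rRNA, edgeR called 2, 2, 5 and 1, and 5.45%, 3.21%, 7.74% and 1.28% of all genes rose. Libraries with the same replicate number deviated together, and every call in the sentences that follow rests on a fit with that block.

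**Figure D3:**
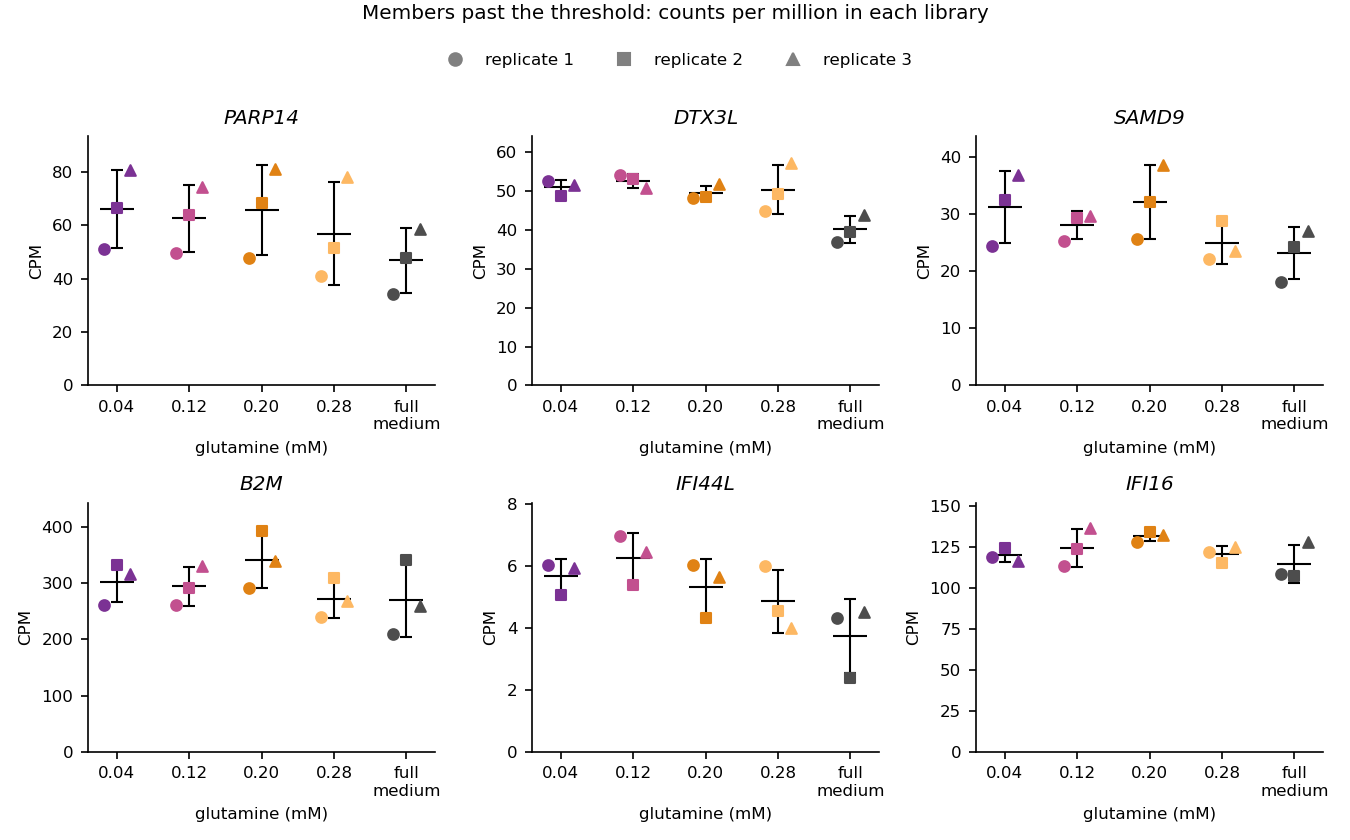
CPM in each library for the 6 genes that passed the test in at least 1 comparison (PARP14, DTX3L, SAMD9, B2M, IFI44L and IFI16), by glutamine group from 0.04 mM to full medium. Points are libraries, marked by replicate number, and lines and bars are group means ± SD (n = 3). On these TMM-scaled CPM, DTX3L has no overlap between any limited group and full medium. PARP14 overlaps in all 4 because its replicate sets lie at different levels.

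The ISG15 conjugation, ADP-ribosylation and ubiquitin genes held 2 of 8 that rose at 0.04, 0.12 and 0.20 mM and 1 of 8 at 0.28 mM. PARP14 (ENSG00000173193, chromosome 3, 122680839 to 122730840 on GRCh38.p14) encodes a macrodomain protein that adds single ADP-ribose units to target proteins. It had 51.3, 66.5 and 80.8 CPM at 0.04 mM, 49.5, 64.0 and 74.5 CPM at 0.12 mM, 47.9, 68.5 and 81.0 CPM at 0.20 mM, 40.9, 51.4 and 78.3 CPM at 0.28 mM, and 34.2, 47.7 and 58.8 CPM in full medium, in the order of replicates 1, 2 and 3. Replicate 1 was the lowest and replicate 3 the highest in every group, the groups overlapped, and within each replicate number all 4 limited libraries lay above full medium. The log2 fold change was 0.51 ± 0.0871 (SE) at 0.04 mM, adjusted p 0.00018, 0.44 ± 0.0853 at 0.12 mM, adjusted p 0.00138, and 0.49 ± 0.0840 at 0.20 mM, adjusted p 0.000211 (edgeR quasi-likelihood test, Benjamini-Hochberg). At 0.28 mM it was 0.27 ± 0.0850 with an adjusted p of 0.0908. The calls at 0.04, 0.12 and 0.20 mM held when any 1 of the 15 libraries was left out. With libraries scaled to the ERCC spike-in, RNA of known amount added to each sample, those at 0.04 and 0.20 mM held and that at 0.12 mM did not (0.25).

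DTX3L (ENSG00000163840, chromosome 3, 122564338 to 122575203) encodes a ubiquitin ligase that works as a partner of PARP9. Its libraries had 52.5, 48.7 and 51.6 CPM at 0.04 mM, 54.2, 53.1 and 50.7 CPM at 0.12 mM, 48.1, 48.4 and 51.7 CPM at 0.20 mM, 44.8, 49.1 and 57.2 CPM at 0.28 mM, and 36.9, 39.6 and 43.9 CPM in full medium. On these TMM-scaled CPM all 12 limited libraries lay above all 3 full-medium libraries. The log2 fold changes were 0.36 ± 0.0926, 0.41 ± 0.0898, 0.30 ± 0.0890 and 0.32 ± 0.0891 (SE) from 0.04 to 0.28 mM, with adjusted p of 0.00844, 0.00387, 0.0194 and 0.0487. The call at 0.12 mM held without any 1 library, and that at 0.04 mM was lost without its replicate 1 (adjusted p 0.0947). At 0.20 mM it was lost without any 1 of the 0.20 mM libraries or replicate 1 of full medium (adjusted p 0.0592 to 0.0832). At 0.28 mM it was lost in 12 of 15 such fits, the exceptions being those without replicate 3 of 0.04 mM, replicate 2 of 0.12 mM or replicate 3 of 0.12 mM, and without replicate 3 of 0.28 mM the log2 fold change was 0.25 (adjusted p 0.379).

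PARP9, a macrodomain protein that binds ADP-ribose and shares its promoter region with DTX3L, is given beside it by choice after its values were seen. It had 12.4, 11.98 and 14.6 CPM at 0.04 mM, 10.7, 11.7 and 14.1 CPM at 0.12 mM, 13.9, 14.6 and 14.8 CPM at 0.20 mM, 11.9, 11.2 and 14.7 CPM at 0.28 mM, and 9.05, 14.01 and 14.99 CPM in full medium. Its groups overlapped throughout, and its log2 fold changes of 0.06, -0.05, 0.21 and 0.01 did not pass. The ratio of DTX3L to PARP9 counts averaged 3.94 ± 0.363, 4.40 ± 0.734, 3.42 ± 0.104 and 4.01 ± 0.342 from 0.04 to 0.28 mM and 3.28 ± 0.698 in full medium (SD, n = 3 each), so the ratio in full medium, 2.82 to 4.08, overlapped the others. Exons of the 2 genes overlap on opposite strands over 3.7% of DTX3L and 2.43% of PARP9, and whether the counting used strand is not given in the sources used here. Of the rest of the group, ISG15, the ubiquitin-like modifier itself, lay between 1.35 and 5.62 CPM, with log2 fold changes of -0.07, 0.37, 0.01 and 0.48, and USP18, the protease that removes it, lay between 2.73 and 6.13 CPM. TRIM21, HERC6 and UBA7 did not pass either.

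Among the antiviral effectors 1 of 7 tested rose at 0.04 and 0.20 mM and none at 0.12 and 0.28 mM. SAMD9 (ENSG00000205413, chromosome 7, 93099518 to 93117979) encodes a cytoplasmic protein that restricts poxviruses. It had 24.4, 32.4 and 36.8 CPM at 0.04 mM, 25.2, 29.3 and 29.6 CPM at 0.12 mM, 25.6, 32.1 and 38.5 CPM at 0.20 mM, 22.2, 28.8 and 23.5 CPM at 0.28 mM, and 18.1, 24.1 and 27.0 CPM in full medium. Within each replicate number the 0.04, 0.12 and 0.20 mM libraries lay above full medium, whereas at 0.28 mM this held for 2 of 3, and the groups overlapped. The log2 fold change was 0.42 ± 0.118 (SE) at 0.04 mM, adjusted p 0.0140, and 0.48 ± 0.112 at 0.20 mM, adjusted p 0.00383. It was 0.31 at 0.12 mM (adjusted p 0.0967) and 0.12 at 0.28 mM (adjusted p 0.644). Leaving out replicate 2 or 3 of 0.04 mM, or replicate 1 or 2 of full medium, ended the call at 0.04 mM (adjusted p 0.0515 to 0.0683), and leaving out replicate 3 of 0.20 mM ended that at 0.20 mM (adjusted p 0.0639).

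OAS3, a synthetase of the oligoadenylates that activate RNase L, was the effector with the highest counts. It had 117, 113 and 103 CPM at 0.04 mM, 109, 121 and 104 CPM at 0.12 mM, 107, 122 and 106 CPM at 0.20 mM, 104, 122 and 117 CPM at 0.28 mM, and 101, 96.8 and 102 CPM in full medium. On these TMM-scaled CPM no limited library fell below the highest full-medium library. The log2 fold changes of 0.16, 0.16, 0.16 and 0.19 did not pass, with adjusted p of 0.167, 0.201, 0.156 and 0.172. MX1, a dynamin-like GTPase that blocks influenza virus and is named here after its values were seen, had 0.373, 0.461 and 0.270 CPM at 0.04 mM and 0.923, 0.647 and 2.45 CPM in full medium. Its log2 fold change at 0.04 mM, -1.60 with a 95% confidence interval of -2.88 to -0.32, had an adjusted p of 0.0799 and was the lowest of the 38. OAS1, BST2, ISG20 and OASL, with means of 1.56 to 9.60 CPM, did not pass in any comparison.

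**Figure D4:**
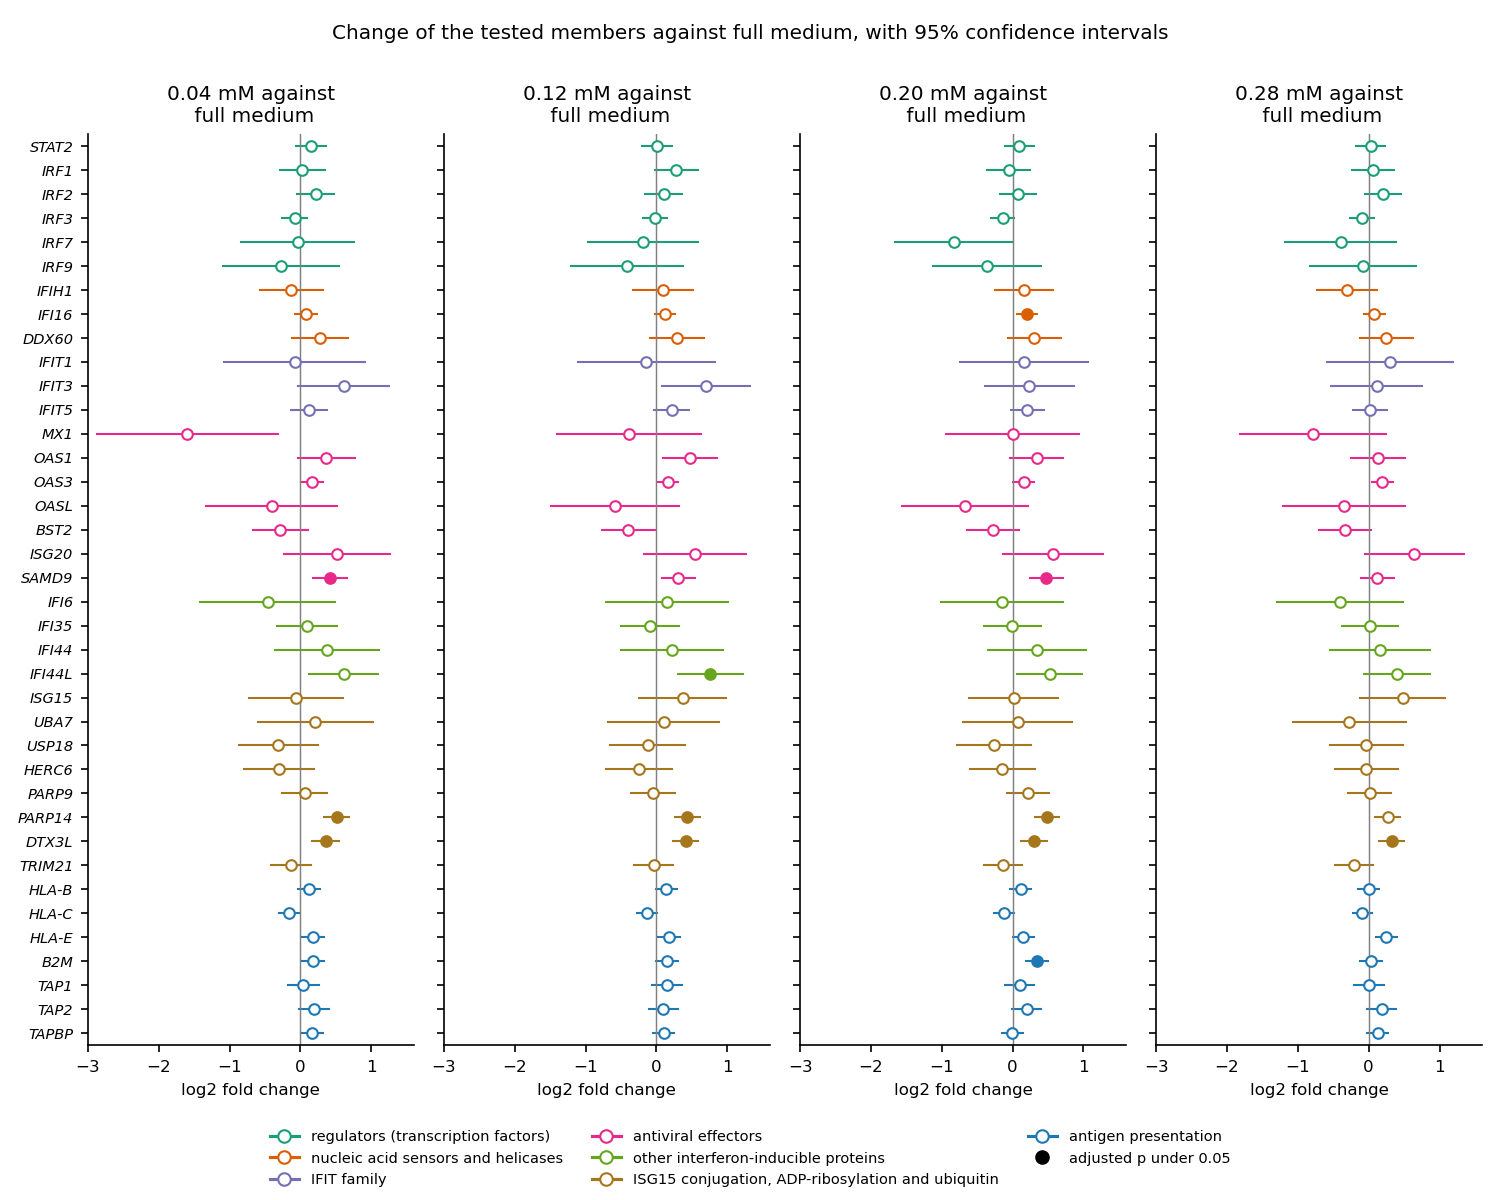
Log2 fold change of each of the 38 tested genes against full medium at each concentration from 0.04 to 0.28 mM, grouped by role, with 95% confidence intervals from edgeR's quasi-likelihood fit with the replicate block. Filled points passed an adjusted p of 0.05. Intervals of low-count genes such as MX1 (-2.88 to -0.32 at 0.04 mM) are several times wider than that of PARP14 (0.33 to 0.69).

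Antigen presentation genes held 1 call among 7 tested, at 0.20 mM. B2M (ENSG00000166710, chromosome 15, 44711517 to 44718145) had 261, 332 and 316 CPM at 0.04 mM, 262, 291 and 331 CPM at 0.12 mM, 292, 394 and 339 CPM at 0.20 mM, 240, 309 and 268 CPM at 0.28 mM, and 210, 341 and 259 CPM in full medium. Replicate 2 of full medium was above every limited library except replicate 2 of 0.20 mM, so the groups overlapped. At 0.20 mM it rose in 3 of 3 replicate numbers with a log2 fold change of 0.35 ± 0.0764 (SE) and an adjusted p of 0.0022, and this call held without any 1 of the 15 libraries. Its log2 fold changes were 0.18 at 0.04 mM (adjusted p 0.122), 0.15 at 0.12 mM (adjusted p 0.266) and 0.03 at 0.28 mM (adjusted p 0.904).

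TAPBP had 199, 174 and 188 CPM at 0.04 mM, 179, 172 and 186 CPM at 0.12 mM, 163, 159 and 179 CPM at 0.20 mM, 187, 162 and 202 CPM at 0.28 mM, and 192, 135 and 177 CPM in full medium. Its groups overlapped and its log2 fold changes of 0.17, 0.10, -0.00 and 0.13 did not pass. The MHC class I heavy chains HLA-B, HLA-C and HLA-E lay between 63.6 and 95.1, 140 and 185, and 100 and 141 CPM over the 15 libraries. HLA-C had log2 fold changes of -0.16, -0.13, -0.12 and -0.09 and HLA-E of 0.18, 0.18, 0.15 and 0.25, none of which passed in edgeR, the nearest being HLA-E at 0.28 mM with an adjusted p of 0.0659. These heavy chains are paralogs, so the counting may have split or dropped reads they share. TAP1 and TAP2, the peptide transporter, averaged 42.0 and 37.7 CPM and did not pass. TAP2 shares 32.3% of its exonic bases with another annotated gene on the same strand, TAP1 9.49% with PSMB8-AS1 and HLA-B 17.8% with a gene on the opposite strand, so their counts are uncertain.

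The transcription factors of the pathway gave no call among 6 tested in any comparison. IRF3, which is activated by nucleic acid sensing and switches on interferon genes, had 69.6, 70.4 and 57.0 CPM at 0.04 mM, 77.8, 62.8 and 65.3 CPM at 0.12 mM, 65.3, 66.8 and 56.5 CPM at 0.20 mM, 71.4, 70.9 and 52.7 CPM at 0.28 mM, and 73.4, 74.0 and 60.6 CPM in full medium. STAT2 had 36.3, 24.7 and 34.6 CPM at 0.04 mM, 33.6, 22.8 and 29.3 CPM at 0.12 mM, 33.9, 25.5 and 31.4 CPM at 0.20 mM, 35.2, 23.4 and 28.1 CPM at 0.28 mM, and 31.7, 26.1 and 27.0 CPM in full medium. Groups of both genes overlapped in every comparison, and replicate 2 was the lowest of STAT2 in all 5 groups. The 95% confidence intervals for STAT2 ran from -0.06 to 0.37 at 0.04 mM and from -0.18 to 0.23 at 0.28 mM on the log2 scale. IRF1, IRF2, IRF7 and IRF9 averaged 14.5, 24.8, 2.16 and 2.32 CPM. IRF9 shares 48.4% of its exonic bases with another gene on the same strand, IRF1 22% with the antisense gene IRF1-AS1 and IRF3 19.4% with BCL2L12 on the opposite strand.

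Nucleic acid sensors gave 1 call among 3 tested. IFI16 (ENSG00000163565, chromosome 1, 158999976 to 159055151), a sensor of DNA, had 119, 124 and 116 CPM at 0.04 mM, 113, 124 and 137 CPM at 0.12 mM, 128, 134 and 133 CPM at 0.20 mM, 122, 115 and 125 CPM at 0.28 mM, and 108, 107 and 128 CPM in full medium. On these TMM-scaled CPM the 0.20 mM libraries lay narrowly above all full-medium libraries, and the other limited groups overlapped with full medium. Its log2 fold change at 0.20 mM was 0.21 ± 0.0705 (SE) with an adjusted p of 0.0447, and that call was lost in 10 of 15 fits that left out 1 library. Those libraries were all 3 of 0.20 mM, replicates 1 and 2 of full medium and of 0.04 mM, replicate 1 of 0.12 mM and replicates 1 and 3 of 0.28 mM, with adjusted p of 0.0522 to 0.197. DDX60, a helicase linked to sensing by RIGI, had 6.90, 8.91 and 10.8 CPM at 0.04 mM, 8.18, 8.16 and 9.88 CPM at 0.12 mM, 8.21, 7.61 and 10.8 CPM at 0.20 mM, 7.10, 7.33 and 11.4 CPM at 0.28 mM, and 6.37, 8.41 and 6.46 CPM in full medium. Its groups overlapped, its log2 fold changes of 0.28, 0.29, 0.30 and 0.25 did not pass, and nor did those of IFIH1, the RNA sensor MDA5, between 3.67 and 9.90 CPM.

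None of the 3 tested IFIT genes, which encode proteins that bind foreign RNA, passed. IFIT5 had 20.1, 24.3 and 25.1 CPM at 0.04 mM, 19.5, 24.6 and 32.5 CPM at 0.12 mM, 20.5, 28.3 and 26.3 CPM at 0.20 mM, 18.3, 23.1 and 24.5 CPM at 0.28 mM, and 15.3, 25.8 and 24.5 CPM in full medium. IFIT3 had 3.73, 4.15 and 3.24 CPM at 0.04 mM, 3.65, 4.71 and 3.61 CPM at 0.12 mM, 3.23, 2.95 and 2.55 CPM at 0.20 mM, 2.18, 1.80 and 4.25 CPM at 0.28 mM, and 2.68, 2.05 and 2.71 CPM in full medium. The IFIT3 libraries at 0.04 and 0.12 mM lay above those of full medium without overlap, with log2 fold changes of 0.61 ± 0.317 and 0.70 ± 0.303 (SE) and adjusted p of 0.210 and 0.160. IFIT1 lay between 0.614 and 1.81 CPM.

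Among the other interferon-inducible genes 1 of 4 tested rose, at 0.12 mM. IFI44L (ENSG00000137959, chromosome 1, 78620448 to 78646145) had 6.06, 5.07 and 5.94 CPM at 0.04 mM, 6.99, 5.40 and 6.46 CPM at 0.12 mM, 6.03, 4.32 and 5.64 CPM at 0.20 mM, 6.01, 4.56 and 4.01 CPM at 0.28 mM, and 4.34, 2.37 and 4.52 CPM in full medium. Libraries at 0.04 and 0.12 mM did not overlap with full medium, and those at 0.20 and 0.28 mM did. The log2 fold change at 0.12 mM was 0.76 ± 0.224 (SE), with a 95% confidence interval of 0.30 to 1.22 and an adjusted p of 0.0288, and those at 0.04, 0.20 and 0.28 mM were 0.61, 0.52 and 0.40 with adjusted p of 0.0814, 0.112 and 0.386. The call was lost without any 1 of the 0.12 mM libraries or without replicate 1 or 2 of full medium, with adjusted p of 0.0543 to 0.158. IFI35 had 7.55, 6.14 and 6.76 CPM at 0.04 mM, 6.27, 6.21 and 5.32 CPM at 0.12 mM, 7.07, 7.27 and 4.58 CPM at 0.20 mM, 7.88, 5.17 and 5.90 CPM at 0.28 mM, and 6.92, 7.01 and 4.91 CPM in full medium, with overlap throughout. IFI44 and IFI6 did not pass.

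**Figure D5:**
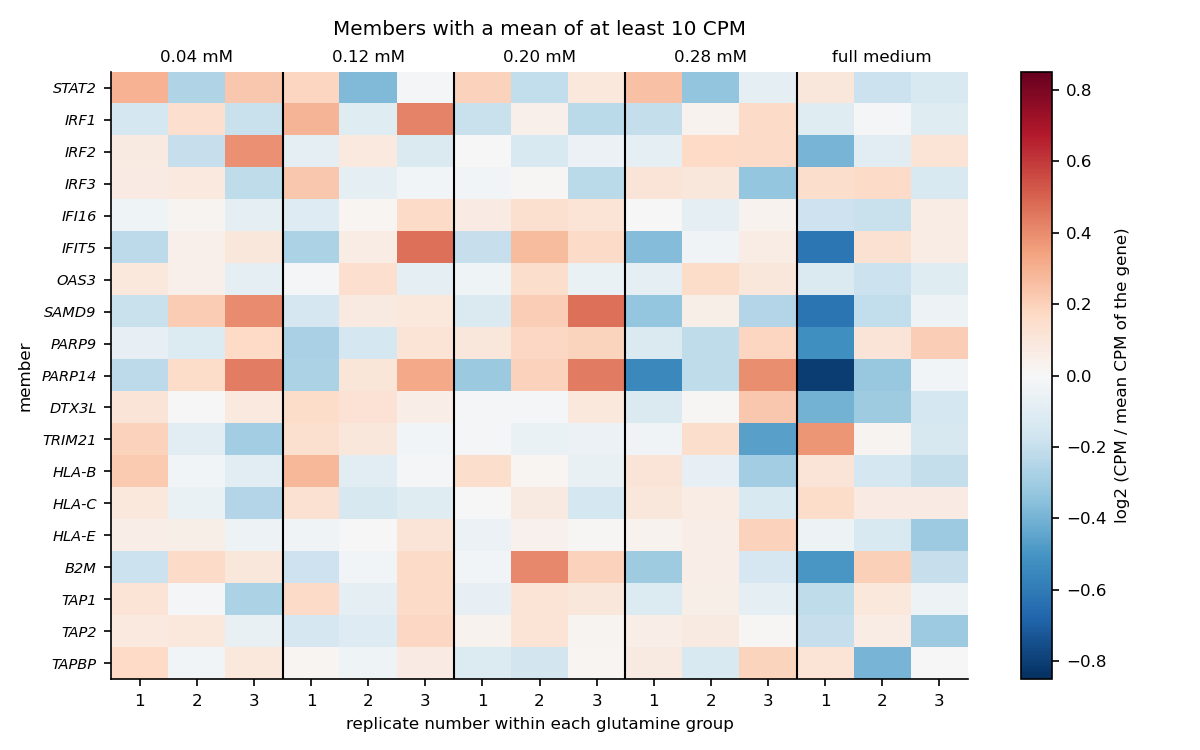
Log2 of CPM over the gene's mean CPM in each of the 15 libraries, for the 19 genes with a mean of at least 10 CPM, by glutamine group and replicate number; red is above and blue below the mean. PARP14 and SAMD9 are lowest in full medium replicate 1 (34.2 and 18.1 CPM), and STAT2 is lowest in replicate 2 of every group.

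As a set, the 38 genes lay slightly above full medium with TMM factors, and the shift against full medium depends on the scaling. Their median log2 fold change was 0.11, 0.11, 0.11 and 0.03 from 0.04 to 0.28 mM, against 0.0064, 0.0047, 0.0033 and 6.75e-05 for all genes tested. With ERCC scaling it was 0.10, -0.07, 0.06 and -0.11, against 0.00048, -0.18, -0.045 and -0.13 for all genes tested. That scaling itself moved the median of all genes by -0.0059, -0.18, -0.048 and -0.13. With TMM factors 24, 25, 25 and 24 of the 38 were above 0, and 18 were above 0 in all 4 comparisons and 9 below, but with ERCC scaling 24, 12, 23 and 14 were above 0, and 7 and 11 were above and below in all 4. Calls over all genes split as 610 up and 539 down at 0.12 mM with TMM factors and as 76 and 1130 with ERCC scaling, and the corresponding figures were 1061 and 989 against 141 and 280 at 0.20 mM, and 170 and 117 against 18 and 102 at 0.28 mM. With ERCC scaling only PARP14 passed among the 38, at 0.04 and 0.20 mM, and the share of all genes that rose was 2.04%, 0.55%, 1.02% and 0.13% from 0.04 to 0.28 mM. With TMM factors the summed level of the 44 genes was 1573 to 1593 CPM at 0.04 mM and 1537 to 1662 CPM at 0.12 mM. It was 1535 to 1687 CPM at 0.20 mM and 1499 to 1564 CPM at 0.28 mM, against 1416 to 1504 CPM in full medium. This sum follows the abundant genes: the 7 antigen presentation genes made up 935 of a mean 1584 CPM at 0.04 mM and 876 of 1465 CPM in full medium. The sum was not computed with ERCC scaling. In bulk RNA a smaller share of cells expressing a gene and less RNA of it per cell cannot be told apart.

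No graded change with the concentration of glutamine was called within limitation. Between 0.04 and 0.28 mM none of the 38 passed, against 0.0434% of all genes, while 2 had an unadjusted p under 0.05 in edgeR with the block, against 9.02% of all genes, none without it, and DESeq2 called none. Along log2 concentration over the 12 limited libraries none passed either, against 0.0% of all genes, with none at an unadjusted p under 0.05, against 7.69% of all genes, and none called by DESeq2. When full medium was added as 2.5 mM, 4 passed, DTX3L, IFI44L, PARP14 and SAMD9, which fell as concentration rose, against 8.11% of all genes that fell in that fit. In the joint test of any difference among the 5 groups 4 of 38 passed, against 10.7% of all genes. They were PARP14 (adjusted p 0.000425), B2M (0.00991), SAMD9 (0.0139) and DTX3L (0.0147), in edgeR's quasi-likelihood test with Benjamini-Hochberg adjustment. Without the block none did, and 1 of the 38 had an unadjusted p under 0.05, against 4.32% of all genes.

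Differences between replicate numbers were called more often than differences between glutamine groups, for these genes as for all genes. Replicate number was called for 16 of the 38, against 50.2% of all genes, of which 10.7% were called for glutamine group. Replicate 1 was also the deepest library of every group, with 11228596 to 13361406 gene counts, and the part of depth was not tested. PARP14 (adjusted p 5.95e-10) and B2M (adjusted p 6.99e-06) were among the 16, by edgeR's quasi-likelihood test. PARP14 averaged 44.7, 59.6 and 74.7 CPM over the 5 libraries of replicates 1, 2 and 3. The labels do not say what a replicate number stands for beyond a biological replicate. Counts limited what could be seen: the 19 genes at 10 CPM or more had standard errors of 0.0676 to 0.157 and included 5 of the 6 that passed, whereas the 19 below had 0.178 to 0.627 and included 1.

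Genes of the set did not move as 1 block across libraries. Over the 19 genes at 10 CPM or more, the median Pearson correlation of log2 CPM between pairs was 0.13 across the 15 libraries (171 pairs), against 0.0025 among 9197 genes at that level. These libraries share groups and replicate numbers, and after both were removed the median was 0.071, against 0.0077. Single pairs ran from -0.83 to 0.83 before removal and from -0.76 to 0.90 after it, the highest then being IRF3 with HLA-B. Among genes that passed the test, DTX3L and PARP14 correlated at 0.68 before and 0.71 after removal, whereas PARP14 and SAMD9 correlated at 0.81 before and -0.53 after. These are descriptions of 15 libraries and carry no test.

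Presence of the promoter element was set beside the calls without a test. Of the 38, 22 had an ISRE core in a window, 5 of which passed in at least 1 comparison. Of the 9 with a window and no core, 1 passed, IFI16. With a looser pattern, GAAA, any 2 bases, GAA on either strand, 24 of 34 genes matched (70.6%, against 9.86% of all genes). All 6 genes that passed were among the 23 tested with a match. The share passing among all genes with or without a match was not counted. With only 6 genes that passed, these counts cannot tell whether the calls go with the element.

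Other genes of the pathway were read from a list of 79, of which 62 were tested and 9 passed in at least 1 comparison. With full medium as the comparison, 2 rose and 1 fell at 0.04 mM, 3 rose and 1 fell at 0.12 mM, 2 rose and 4 fell at 0.20 mM, and 1 rose at 0.28 mM, and none passed without the replicate block. Their median log2 fold changes were 0.022, 0.026, -0.0031 and 0.014, close to those of all genes. As a share of the 62, calls in either direction made up 4.84%, 6.45%, 9.68% and 1.61% from 0.04 to 0.28 mM. Among all genes tested, rises alone made up 7.21%, 4.41%, 7.67% and 1.23%, and falls a further 6.23%, 3.9%, 7.15% and 0.846%. The pathway list was thus called no more often than all genes in any comparison with full medium. Of 9 interferon genes on the list, IFNL1, IFNL2, IFNL3, IFNG, IFNA1 and IFNA2 had 0 counts in all 15 libraries, which together hold 135756266 gene counts and so allow up to 0.0221 CPM at a floor of 3 counts. IFNE had 99 counts, IFNK 3 and IFNB1 2.

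Among receptors, IFNGR1, a chain of the type II interferon receptor, had 28.7, 38.4 and 40.3 CPM at 0.04 mM, 26.4, 38.5 and 42.5 CPM at 0.12 mM, 28.0, 47.9 and 42.9 CPM at 0.20 mM, 30.3, 36.0 and 41.8 CPM at 0.28 mM, and 20.8, 34.6 and 31.3 CPM in full medium. The limited libraries lay above full medium in 3 of 3 replicate numbers in each comparison, with overlap between groups. IFNGR1 rose by a log2 fold change of 0.32 at 0.04 mM (adjusted p 0.0413) and 0.45 at 0.20 mM (adjusted p 0.00293), and the second call held without any 1 library, the first being lost in 8 of 15 such fits (0.28 and adjusted p 0.182 without replicate 1 of 0.04 mM). IFNGR2, the other chain, rose by 0.20 at 0.20 mM (adjusted p 0.0495). That call was lost in 12 of 15 such fits, all but those without replicate 2 of 0.12 mM or replicate 1 or 3 of full medium, and without replicate 2 of full medium the value was 0.11 (adjusted p 0.344). IFNGR2 has 12.8% of its exonic bases shared with TMEM50B on the opposite strand.

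MAVS, the mitochondrial adaptor that relays signals from RIGI and MDA5, had 277, 232 and 266 CPM at 0.04 mM, 254, 231 and 236 CPM at 0.12 mM, 252, 212 and 236 CPM at 0.20 mM, 272, 217 and 248 CPM at 0.28 mM, and 245, 181 and 202 CPM in full medium. It was higher in 3 of 3 replicate numbers in every comparison, and its groups overlapped. It rose by 0.31 at 0.04 mM (adjusted p 0.00157), a call that held without any 1 library, by 0.21 at 0.12 mM (adjusted p 0.0367) and by 0.23 at 0.28 mM (adjusted p 0.0470), the last 2 being lost in 10 and 13 of 15 such fits (adjusted p up to 0.229 without replicate 2 of 0.12 mM and 0.257 without replicate 3 of 0.28 mM). ZC3HAV1, an antiviral zinc finger protein, and IFITM2, a membrane protein that blocks viral entry, fell by 0.23 (adjusted p 0.0254) and 0.24 (adjusted p 0.0485) at 0.20 mM. ZC3HAV1 was lost in 4 of 15 such fits, those leaving out the 0.20 mM or the full-medium library numbered 2 or 3 (adjusted p up to 0.166). IFITM2 was lost in 11 of 15 such fits, all but those without replicate 3 of 0.04 mM, replicate 2 of 0.12 mM, replicate 2 of 0.20 mM or replicate 2 of full medium, and without replicate 1 of full medium its value was -0.13 (adjusted p 0.356). DESeq2 did not call IFITM2 either (adjusted p 0.0632). IFITM2 shares 22.8% of its exonic bases with its paralog IFITM1, so its counts are uncertain.

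In the peptide loading machinery the chaperone CALR (calreticulin) had 1181, 944 and 929 CPM at 0.04 mM, 1140, 1005 and 835 CPM at 0.12 mM, 1129, 914 and 750.2 CPM at 0.20 mM, 1223, 1042 and 835 CPM at 0.28 mM, and 1446, 1065 and 1072 CPM in full medium. Every limited library lay below the full-medium library of its own number, with overlap between groups. CALR fell by 0.22 at 0.04 mM (adjusted p 0.0481), 0.26 at 0.12 mM (adjusted p 0.0281) and 0.36 at 0.20 mM (adjusted p 0.00165), and at 0.28 mM its value was -0.21 (adjusted p 0.148). The call at 0.20 mM held without any 1 library, and those at 0.04 and 0.12 mM were lost in 10 and 4 of 15 such fits (adjusted p up to 0.230 without replicate 2 of 0.04 mM and 0.134 without replicate 1 of 0.12 mM). HSPA5, an endoplasmic reticulum chaperone, fell by 0.28 at 0.20 mM (adjusted p 0.0263). That call was lost in 4 of 15 such fits, those leaving out the 0.20 mM or the full-medium library numbered 2 or 3, and without the third full-medium library the value was -0.15 (adjusted p 0.246). PSME1, a subunit of the proteasome activator, rose by 0.31 (adjusted p 0.0452) and RFX5, which controls MHC genes, by 0.34 (adjusted p 0.0100) at 0.12 mM. PSME1 was lost in 11 of 15 such fits, all but those without replicate 2 or 3 of 0.20 mM, replicate 2 of 0.28 mM or replicate 3 of full medium (adjusted p up to 0.206), and with DESeq2 (adjusted p 0.0515). RFX5 was lost when the 0.12 mM or the full-medium library numbered 2 was left out (adjusted p up to 0.119).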

How the data were processed

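Total RNA was depleted of ribosomal RNA, ERCC Mix 2 spike-in was added, and libraries were made with the KAPA RNA HyperPrep kit and sequenced on a NextSeq 2000, per the labels' protocols. The deposited values are raw counts per gene, made by the authors on GRCh38.p14 (hg38), per the submitters' processing notes; which aligner and counter they used, and whether it read strand, is not given in the sources used here. The deposited counts, ERCC rows apart, were tested with edgeR 4.0.16 in R 4.3.3 (TMM factors, filterByExpr with a minimum count of 10 and total of 15), in 1 fit over all 15 libraries with glutamine group and replicate number as terms, and Benjamini-Hochberg adjustment over the 13828 genes kept. CPM are counts scaled to a common total of gene counts (the usual CPM unit), and log2 CPM used a prior count of 2. Replicate numbers run across groups in the labels. After group means were removed, the deviations of all 30 same-number pairs correlated at 0.184 to 0.489, so the numbers were taken as pairs. Those of 60 different-number pairs correlated at -0.406 to 0.0549. Removing group means pulls these pairs below 0 where same-number pairs lie above it, so their range is not separate support. Intervals and floors cover counting error only, apart from fitted intervals, which reflect the spread between libraries. DESeq2 1.42.0, other scalings, filters, sample sets and leaving out libraries were alternatives. Of the 44 genes, values in every library are given for those past adjusted p 0.05 in a comparison with full medium and for the 2 with the highest mean CPM of each role. Other pathway genes past it are named, at most 4 a list, with library values for those past it more than once, a choice made after the values were seen. Genes and lists were chosen with earlier results of these data known.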

Additional observations from a re-analysis of the deposited data

How the results depend on the processing

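The replicate block decided the calls: without it 0 of the 38 tested interferon-stimulated and antigen presentation genes (members) and 0 other pathway genes passed in any comparison with full medium, and 0 in the joint test. Of all 13828 genes, 6, 0, 2 and 0 passed without it from 0.04 to 0.28 mM, and 0 in the joint test. No gene that passed changed its direction under an alternative that was run. ERCC scaling left 1, 0, 1 and 0 members from 0.04 to 0.28 mM, 2 in the joint test and 29 for replicate number. It left 0, 1 and 0 pathway genes at 0.04, 0.20 and 0.28 mM. Of all 13828 genes it called 506, 1206, 421 and 120 from 0.04 to 0.28 mM. In the joint test it called 644 of all genes, against 1473 with TMM factors, and for replicate number 10788 against 6940. DESeq2 gave 2 members and 2 pathway genes at 0.28 mM, where it called 352 of all 13828 genes. With no filter on counts beyond 1, 0 members and 0 pathway genes passed at 0.28 mM, against 385 of 32760 genes. With only the compared groups in the fit, 1 member passed at 0.12 mM and 0 at 0.28 mM, and 1, 0, 3 and 0 pathway genes passed. Those fits called 1189 of 12922, 296 of 13129, 1706 of 13046 and 306 of 13017 genes from 0.04 to 0.28 mM. Over all 15 libraries the slope called 4 members, all falling, against 8.11% of all genes that fell. Without the 2 libraries over 1% mitochondrial rRNA, 2 pathway genes passed at 0.12 mM and 0 at 0.28 mM. Of all 14040 genes in that fit, 842 and 312 passed there. Without replicate 3 in all groups 0 members passed at 0.28 mM and 2 in the joint test, and 0, 1, 3 and 0 pathway genes. Of all 14106 genes in that fit, 985, 455, 978 and 1 passed from 0.04 to 0.28 mM, and 454 in the joint test. Leaving out each library in turn gave 2 to 4, 2 to 3, 2 to 5 and 0 to 1 members from 0.04 to 0.28 mM. It gave 0 to 0 members between 0.04 and 0.28 mM, 2 to 5 in the joint test, 11 to 16 for replicate number and 0 to 0 for the slope. Pathway genes numbered 1 to 5, 1 to 4, 2 to 8 and 0 to 3. Those fits tested 14118 to 14227 genes and called 956 to 2059, 537 to 1439, 977 to 2285 and 24 to 780 from 0.04 to 0.28 mM. They called 838 to 1805 genes in the joint test and 6143 to 6953 for replicate number. The causes were not tested. Of 26 calls of single genes, 26 held with a filter of 5 CPM, 24 with DESeq2, 24 with DESeq2's size factors, 19 with no filter, 12 with only the compared groups and 4 with ERCC scaling. The shallowest library held 3704170 gene counts, which limits what can be seen of genes under 10 CPM.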
